A study of Mus musculus with 12 samples.

Results

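The S100 genes encode small calcium-binding proteins, and 10 of them were followed here in the mouse osteosarcoma lines Dunn and LM8 at early and late passages. The genes were S100a1, S100a3, S100a4, S100a6, S100a8, S100a9, S100a10, S100a11, S100a13 and S100b, taken by their name as members of this protein family and not by their measured values. They make up 10 of the 20144 genes that could be named on the array, and 12 probes represented them, with 2 probes each for S100a1 and S100a4 and 1 for each of the others. Dunn is a mouse osteosarcoma line of low metastatic potential, and LM8 is a more metastatic line that was selected from Dunn in mice. The study asked how far long culture changes such lines, and set cells of passage 25 (early Dunn) against passage 86 (late Dunn), and cells of passage 24 (early LM8) against passage 91 (late LM8). Line and passage are all that the labels give as differing between the 4 groups, and the passage number rose by 61 in Dunn and by 67 in LM8. Messenger RNA was measured on 12 one-colour Agilent arrays, 3 per group. The replicate number in the sample titles is taken here as the slide, so that each of 3 slides holds 1 array of every group. By the methods, RNA came from separate samples of frozen cell pellets, but whether the 3 samples of a group were separate cultures is not stated, so p-values measure the spread between arrays, which may be technical.

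S100 proteins carry EF-hand motifs that bind calcium, which opens a face of the protein to partners such as annexins, myosin and enzymes. Several are also released from cells and act through receptors such as Ager and Tlr4. S100a4, which binds non-muscle myosin, is known as a marker of motile and metastatic cells. S100a10 pairs with annexin A2 at the membrane, S100a11 binds annexin A1, and S100a8 with S100a9 forms calprotectin in neutrophils and monocytes. S100b is best known from glia, Schwann cells, melanocytes and chondrocytes.

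Signals are given as log2 of the processed signal relative to the 75th percentile of the same array, so that 0 marks a spot as bright as that percentile, and values of different probes are not set against each other. Before scaling, the 75th percentile lay between 253.1 and 521.6 on the early Dunn arrays, 609.1 and 840.4 on the late Dunn arrays, 788.2 and 1148 on the early LM8 arrays and 1033 and 1699 on the late LM8 arrays, so brightness differed with group. After scaling, the median of all probes was -0.35 in late against early Dunn, -0.21 in late against early LM8 and -0.80 in LM8 against Dunn, and every difference below should be read against these medians. Late Dunn replicate 1 stood apart, with correlations of 0.919 and 0.923 to the other late Dunn arrays, which correlated at 0.986 with each other. The osteoblast markers Runx2, Sp7 and Col1a1 were well above background on all 12 arrays, and the summed relative signal of the osteoblast markers measured on every array lay between 203.5 and 304.1 in early Dunn and between 113.3 and 189.6 in the other groups. Of the 5 epithelial markers, Cdh1 and Krt8 were not well above background on any array, Krt14 was on 11, and Epcam and Krt18 were on 2 and 1. In arrays of whole cultures, fewer cells of a type and less RNA per cell cannot be told apart.

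Of the 10 genes, S100a1, S100a4, S100a6, S100a11 and S100a13 were well above background on all 12 arrays, and S100a10 was so on all 11 arrays that measured it, since its spot on early Dunn replicate 3 was marked as an outlier and left out. S100a3, a protein of the hair shaft, passed on 10 arrays. S100b passed on 3 arrays, all of early LM8, S100a9 on 1 early Dunn array, and S100a8 on none. No S100 spot was saturated. Where neither group of a comparison had an array well above background, no difference is given.

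**Figure D1:**
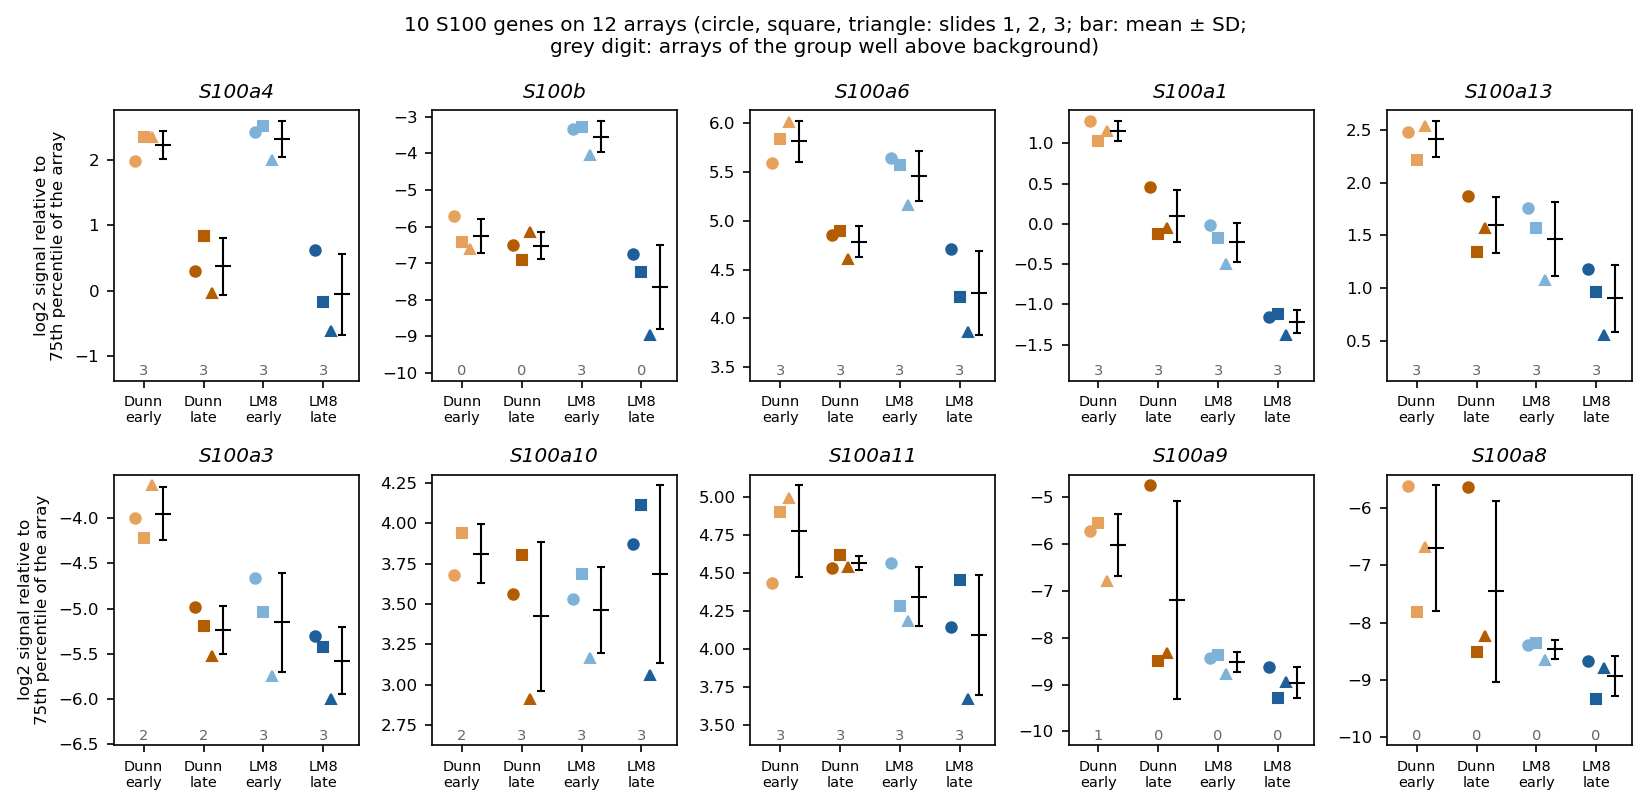
Relative log2 signal of the 10 S100 genes on the 12 arrays, by line and passage, with circles, squares and triangles for slides 1, 2 and 3, bars for the mean ± SD of 3 arrays (2 for S100a10 in early Dunn), and the number of arrays well above background in grey. S100a4 lay between 1.99 and 2.52 on the 6 early arrays and between -0.61 and 0.84 on the 6 late arrays, and S100b was well above background in early LM8 alone.

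In late-passage LM8 cells, S100a4 and S100b were lower than in early-passage cells, and these were the only S100 genes called in a passage comparison at an adjusted p under 0.05. S100a4 measured 2.43, 2.52 and 2.01 on the early LM8 arrays and 0.62, -0.17 and -0.61 on the late ones. The groups did not overlap, and every late array was below every early one. S100a4 fell by 2.37 on the log2 scale (SE 0.35, n = 3 and 3), a 5.18-fold lower signal, with an adjusted p of 0.02 by limma. The differences within slides 1, 2 and 3 were -1.82, -2.69 and -2.62. The second S100a4 probe gave -2.38 (limma, adjusted p = 0.0318). The call was lost without early LM8 replicate 1 or 2 or late LM8 replicate 2 or 3 (limma, adjusted p up to 0.0998, with differences between -2.71 and -2.10 over all arrays left out in turn) and by the methods' t-test with Benjamini-Hochberg adjustment.

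The promoter window of S100a4 is shown because this gene had the lowest p-value of the well detected members in both passage comparisons and holds the TATA-box letters. It comes from RefSeq (GRCm38.p6, chr3:90603520-90603819, plus strand, 250 bases before to 50 after the start site), with the letters TATAAA in capitals.
S100a4: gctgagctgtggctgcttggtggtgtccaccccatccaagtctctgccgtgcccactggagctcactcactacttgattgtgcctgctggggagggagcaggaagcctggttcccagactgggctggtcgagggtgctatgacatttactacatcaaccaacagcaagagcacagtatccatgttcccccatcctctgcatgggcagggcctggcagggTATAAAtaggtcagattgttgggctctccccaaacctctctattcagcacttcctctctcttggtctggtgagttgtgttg
The match begins at position -31 from the start site, and the window holds 2 CpG dinucleotides. Over all 32851 promoter windows of the same length, 8.32% hold TATAAA on the gene's strand and the median number of CpG dinucleotides is 7.

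In Dunn cells S100a4 showed a difference of the same sign. It measured 1.99, 2.36 and 2.34 in early Dunn and 0.31, 0.84 and -0.03 in late Dunn, again with no overlap. The difference was -1.86 (SE 0.36, n = 3 and 3), with within-slide values of -1.68, -1.52 and -2.37. Its unadjusted p was 0.00233 by limma, but the adjusted p was 0.424. With all 12 arrays in 1 fit the adjusted p by limma was 0.0366, and with dim probes left out 0.0495. These were the only 2 of 17 alternatives that called it, and over all of them the difference ran from -2.09 to -0.88. The second S100a4 probe gave -2.05 in Dunn (limma, adjusted p = 0.653). Before scaling, the processed signals were 1340, 2675 and 1285 in early Dunn and 824.5, 1504 and 596.7 in late Dunn, with overlap. Without late Dunn replicate 1, the array that stood apart, the difference was -1.82 (limma, adjusted p = 0.199). Ordered by mean, S100a4 stood at 2.32 ± 0.28 in early LM8, 2.23 ± 0.21 in early Dunn, 0.37 ± 0.44 in late Dunn and -0.05 ± 0.62 in late LM8 (SD, n = 3 each). The early groups overlapped with each other, as did the late groups. The difference between the lines in their passage effect was -0.52 (95% confidence interval -1.63 to 0.60, limma, adjusted p = 1), which does not show that the effects are alike.

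S100b was detected in 1 group only. Its processed signals were 78.9, 119.3 and 65.9 on the early LM8 arrays, between 2.49 and 11.2 on the late LM8 arrays and between 2.57 and 8.52 on the 6 Dunn arrays. On the relative log2 scale early LM8 lay at -3.32, -3.27 and -4.04 and late LM8 at -6.75, -7.25 and -8.96, without overlap. Since late LM8 was not well above background on any array, the result is a bound, formed from the mean of the early arrays and the lowest signals that count as well above background on the late ones. S100b was at least 8.87-fold lower in late LM8 (limma, adjusted p = 0.0169). The call was lost without early LM8 replicate 1 (limma, adjusted p = 0.0682) or late LM8 replicate 2 (limma, adjusted p = 0.0628), and by the methods' t-test with Benjamini-Hochberg adjustment. With normexp background correction, whose offset compresses dim signals, S100b was called lower as well (limma, adjusted p = 0.0174). Over the alternatives of the closing section the log2 difference, with background values in late LM8, ran from -4.74 to -1.52. The bound was formed with the main scaling alone.

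Early LM8 was also at least 2.02-fold higher in S100b than early Dunn, which was not well above background (limma, adjusted p = 0.0183). It was no longer called without early Dunn replicate 3 or any 1 of the 3 early LM8 arrays (limma, adjusted p up to 0.110), with a floor on dim signals (limma, adjusted p = 0.202) or by the methods' t-test after adjustment, and its sign turned under normexp background correction, to -0.54. The interaction of line and passage had an adjusted p of 0.0818 by limma, which missed the threshold, and no size is given, since 3 of the 4 groups were not well above background on any array. No S100 gene was called for the interaction by limma, against 0.616% of all genes, and S100b was the 1 gene of the 10 with an unadjusted p under 0.05, a level that 6.71% of all genes passed. Of the other genes known from S100b-positive cells, Sox10 and Gfap were not well above background on any early LM8 array. For chondrocyte markers, the sum of the 5 genes measured on every array was between 0.105 and 0.160 in early LM8 and between 0.112 and 0.188 in late LM8. Col2a1, which this sum leaves out, averaged 5.92 in early and 5.72 in late LM8 and was well above background on all 3 arrays of each. The part of such cells in the result was not tested.

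S100b lies on chromosome 10, apart from the other members, and its window is shown because it was detected in 1 group alone (GRCm38.p6, chr10:76253586-76253885, plus strand).
S100b: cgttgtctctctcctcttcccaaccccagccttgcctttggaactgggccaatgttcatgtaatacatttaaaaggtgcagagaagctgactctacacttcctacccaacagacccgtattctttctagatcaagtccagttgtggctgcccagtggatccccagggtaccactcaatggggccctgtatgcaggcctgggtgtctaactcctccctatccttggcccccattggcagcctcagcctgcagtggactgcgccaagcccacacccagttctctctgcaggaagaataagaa
It holds neither TATAAA nor TGANTCA (the AP-1 motif, searched on both strands) and has 3 CpG dinucleotides. The second motif is present in 7.81% of all windows. No match says only that these letters are not in this window.

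Over all genes tested in late against early LM8, 1.81% were called lower and 0.978% higher at an adjusted p under 0.05, against 2 of the 10 S100 genes lower and 0 higher. At the study's level of more than 2-fold and an unadjusted p under 0.05, 4.93% of all genes were lower, and the S100 genes lower at this level were S100a4, S100b and S100a6. In late against early Dunn, no S100 gene was called by limma at an adjusted p under 0.05, nor by the methods' t-test after adjustment, where 0.00501% of all genes were called by limma. At an unadjusted p under 0.05, 5 of the 10 S100 genes differed, all with lower signals, against 5.67% of all genes lower at this p. At more than 2-fold and this p, 4 were lower (S100a1, S100a3, S100a4 and S100a6) and none was higher, against 3.69% of all genes lower and 1.28% higher. This count was 2 without late Dunn replicate 3, 1 under normexp background correction, 1 with the 75th percentile taken over probes well above background on all arrays, and 0 in the unscaled table of the authors. The median difference of the 10 genes was -0.92 in Dunn, where that of all probes was -0.35, and -0.52 in LM8, where that of all probes was -0.21. These medians include background values alone for S100a8 in both lines, S100b in Dunn and S100a9 in LM8.

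**Figure D2:**
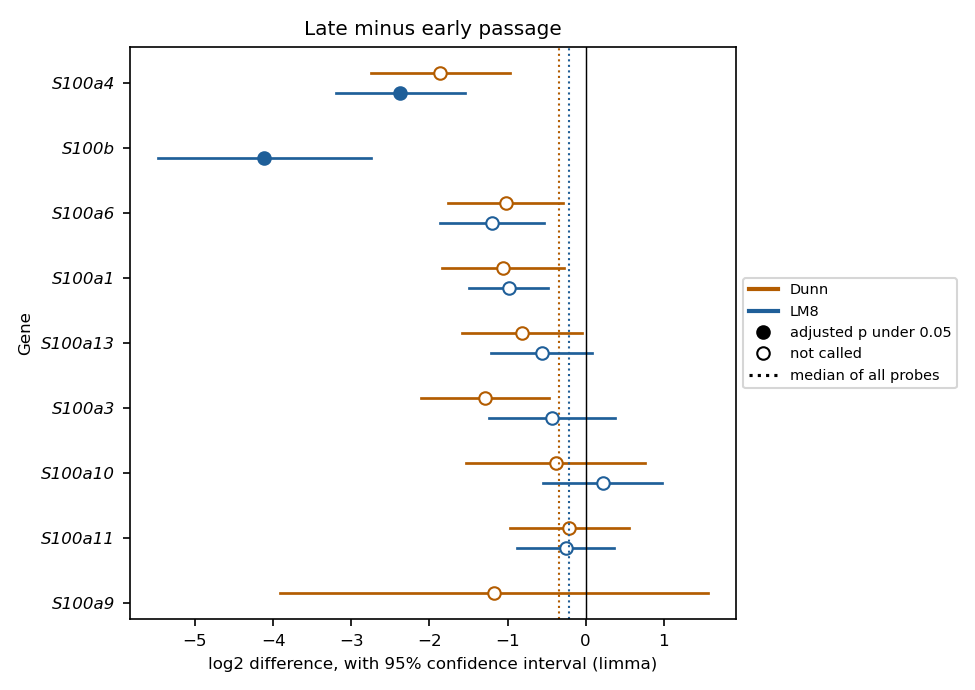
Late minus early log2 difference of each S100 gene in Dunn (brown) and LM8 (blue), with 95% confidence intervals from limma, filled points at an adjusted p under 0.05 and dotted lines at the median of all probes. S100a8 in both lines, S100b in Dunn and S100a9 in LM8 were not well above background in either passage and are not drawn. Only S100a4 and S100b in LM8 are filled, and the S100b point is measured against late arrays that were not well above background.

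S100a6, or calcyclin, binds Cacybp and Sugt1 of the ubiquitin machinery. Its scaled signals were lower in the late cells of both lines, without passing the adjusted threshold. It measured 5.59, 5.83 and 6.01 in early Dunn and 4.85, 4.90 and 4.61 in late Dunn. In early LM8 it measured 5.64, 5.57 and 5.16, and in late LM8 4.71, 4.22 and 3.86. In neither line did the passages overlap. Of the 10 genes, 5 showed such a downward gap in Dunn (S100a1, S100a3, S100a4, S100a6 and S100a13) and 5 in LM8 (S100a1, S100a4, S100a6, S100b, and S100a8 with background values alone), a pattern that 17.7% of all genes showed downward in Dunn and 17.6% in LM8. The late minus early difference was -1.02 (SE 0.30, limma, adjusted p = 0.727) in Dunn cells. For LM8 it was -1.20 (SE 0.28, limma, adjusted p = 0.111). Within the 3 slides it ran from -1.40 to -0.74 in Dunn and from -1.35 to -0.94 in LM8. Over the alternatives of the closing section it ran from -1.16 to -0.045 in Dunn and from -1.44 to -0.81 in LM8. Before scaling, the processed signals in Dunn were 16300, 29690 and 16280 early and 19210, 25080 and 14870 late, with overlap. In LM8 S100a6 passed with a floor on dim signals (limma, adjusted p = 0.0241), with dim probes left out (0.0438), under normexp (0.0411) and with array weights (0.0360).

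S100a1, known from heart and skeletal muscle where it acts on calcium release, and S100a13, which takes part in the release of Fgf1 and Il1a, are neighbours on chromosome 3. S100a1 measured 1.28, 1.03 and 1.15 in early Dunn and 0.46, -0.12 and -0.05 in late Dunn. It measured -0.02, -0.18 and -0.50 in early LM8 and -1.15, -1.12 and -1.38 in late LM8. Late arrays lay below early arrays in each line. The passage difference was -1.06 (SE 0.32, limma, adjusted p = 0.746) in Dunn and -0.99 (SE 0.21, limma, adjusted p = 0.0860) in LM8. Over the alternatives of the closing section it ran from -1.24 to -0.081 in Dunn and from -1.12 to -0.60 in LM8. S100a13 measured 2.48, 2.22 and 2.54 in early Dunn and 1.88, 1.34 and 1.57 in late Dunn. It measured 1.76, 1.57 and 1.07 in early LM8 and 1.18, 0.97 and 0.56 in late LM8. The late arrays lay below the early ones in Dunn, whereas in LM8 the passages overlapped. S100a13 averaged 2.41 ± 0.17 in early Dunn, 1.60 ± 0.27 in late Dunn, 1.47 ± 0.35 in early LM8 and 0.90 ± 0.32 in late LM8 (SD, n = 3 each), so that late Dunn and early LM8 differed by less than their spread. Its passage difference was -0.82 (SE 0.31, limma, adjusted p = 0.766) in Dunn. In LM8 it was -0.56 (SE 0.27, limma, adjusted p = 0.293).

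The promoter windows of S100a1 and S100a13 overlap head to head on opposite strands. The window of S100a1 is shown (GRCm38.p6, chr3:90514281-90514580, minus strand), with the 204 bases it shares with the window of S100a13 in capitals, which span chr3:90514281-90514484.
S100a1: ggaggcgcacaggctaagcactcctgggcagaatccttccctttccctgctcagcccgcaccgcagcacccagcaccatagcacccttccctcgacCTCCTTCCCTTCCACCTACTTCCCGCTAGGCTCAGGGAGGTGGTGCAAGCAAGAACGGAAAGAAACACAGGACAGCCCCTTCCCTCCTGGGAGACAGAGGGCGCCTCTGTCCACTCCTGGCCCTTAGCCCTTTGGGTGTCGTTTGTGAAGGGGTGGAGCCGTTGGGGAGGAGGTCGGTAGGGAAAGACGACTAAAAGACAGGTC
The windows hold 11 CpG dinucleotides for S100a1 and 14 for S100a13, above the median of 7 of all windows, and neither holds TATAAA. Over the 12 arrays the signals of S100a1 and S100a13 correlated with r = 0.965, the highest among all pairs of members, followed by S100a4 and S100a6 with r = 0.950. These correlations describe 12 arrays that share their scaling and their 4 groups.

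**Figure D3:**
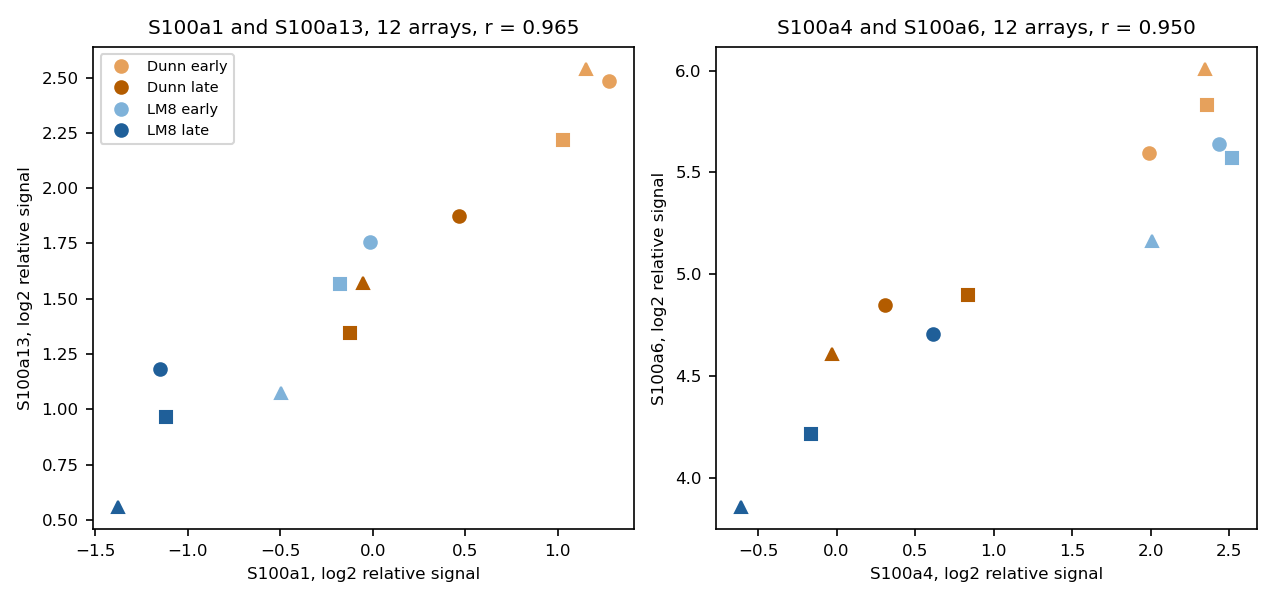
Relative log2 signals of S100a1 against S100a13 (left, r = 0.965) and of S100a4 against S100a6 (right, r = 0.950) on the 12 arrays, coloured by group and shaped by slide as in the plot of all members. S100a4 and S100a6 separate early from late arrays, whereas S100a1 and S100a13 place late Dunn beside early LM8.

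S100a3 measured -3.99, -4.22 and -3.64 in early Dunn and -4.99, -5.20 and -5.52 in late Dunn. It averaged -3.95 ± 0.29 in early Dunn and -5.23 ± 0.27 in late Dunn, with 2 of 3 arrays well above background in each. In early and late LM8 it averaged -5.15 ± 0.55 and -5.57 ± 0.37. The passage difference was -1.28 (SE 0.33, limma, adjusted p = 0.624) in Dunn, without overlap, and -0.43 (SE 0.34, limma, adjusted p = 0.474) in LM8, with overlap. Over the alternatives of the closing section it ran from -1.835 to -0.305 in Dunn and from -0.737 to -0.044 in LM8.

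Among the 7 members well above background on at least 10 arrays, the smallest ranges of group means were 0.39 for S100a10 and 0.69 for S100a11. S100a11 averaged 4.78 ± 0.30 and 4.56 ± 0.05 in early and late Dunn, and 4.34 ± 0.20 and 4.09 ± 0.40 in early and late LM8. S100a10 averaged 3.81 ± 0.18 (n = 2) in early Dunn, 3.42 ± 0.46 in late Dunn, 3.46 ± 0.27 in early LM8 and 3.68 ± 0.55 in late LM8. Early and late arrays overlapped in each case. The 95% confidence intervals of the passage difference were -0.97 to 0.55 (Dunn) and -0.87 to 0.36 (LM8) for S100a11, and -1.53 to 0.76 (Dunn) and -0.54 to 0.98 (LM8) for S100a10. Anxa2, the partner of S100a10, differed by 0.04 (SE 0.38) with passage in Dunn and by -0.21 (SE 0.20) in LM8, with adjusted p of 0.999 and 0.568 by limma. S100a11 was the only member whose promoter window held TGANTCA, and it held this motif at 2 places.

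S100a8 and S100a9 were at or near background. S100a8 was not well above background on any array, with processed signals between 2.04 and 13.5. S100a9 passed on 1 early Dunn array with a processed signal of 11.1. The highest S100a9 signal, 24.9 on late Dunn replicate 1, did not pass, and that is the array that stood apart. Early LM8 was called lower than early Dunn in S100a9 (limma, adjusted p = 0.0273). The processed signals were 6.45, 11.1 and 2.30 in early Dunn and 2.30, 3.46 and 2.48 in early LM8. With only 1 of these arrays well above background, no fold is given. This call was lost under quantile normalization (limma, adjusted p = 0.473), in the unscaled table of the authors (0.293), with all 12 arrays in 1 fit (0.0734), with the 75th percentile over bright probes (0.0929), by the methods' t-test after adjustment, and without any 1 of the 3 early LM8 arrays (limma, adjusted p up to 0.151). Of 12 myeloid markers, 10 were on the array under matched names, and Mpo, Ngp and Ltf of neutrophils were not well above background on any array, whereas Elane, Csf1r and Itgam were on all 12 and Camp on 11. The summed relative signal of 9 of these markers lay between 8.68 and 16.1 in early Dunn and between 5.77 and 8.03 in early LM8, and its part in the S100a9 result was not tested.

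Comparing the lines at the same passage, 1 S100 gene was called lower (S100a9) and 1 higher (S100b) in early LM8 against early Dunn, where 3.33% of all genes were called lower and 1.32% higher. In late LM8 against late Dunn none of the 10 was called by limma or by the methods' t-test after adjustment, where 3.85% of all genes were called by limma (without late Dunn replicate 1, S100a1 was called), and 1 (S100a1, lower) had an unadjusted p under 0.05, against 16.6% of all genes lower at this p. S100a1 was lower in LM8 by 1.39 on the log2 scale at early passage and by 1.31 at late passage (95% confidence intervals -2.10 to -0.67 and -1.96 to -0.66), with adjusted p of 0.0576 and 0.0704 by limma. The second S100a1 probe gave -0.50 and -0.56 (limma, adjusted p = 0.373 and 0.269). In both comparisons the S100a1 groups did not overlap, as was true in the downward direction for 48.8% of all genes at early and 44.2% at late passage, and upward for 6.45% at early passage, where S100b showed it. S100a4 differed by 0.09 at early passage and by -0.42 at late passage, with overlap in each.

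With passages pooled (6 arrays against 6), S100a1 (-1.35, adjusted p = 0.0178) and S100a13 (-0.82, adjusted p = 0.0340) were called lower in LM8 by limma, with overlap of the lines. The median of all probes in this comparison was -0.80, close to the S100a13 difference. S100a8 and S100a9 were called lower too, but of their signals only 1 was well above background, and no fold is given. The second S100a1 probe, at -0.53, was not called (limma, adjusted p = 0.164). These 4 of 10 stood against 39.2% of all genes called lower and 5.49% called higher, so the count is near the background. The lower call of S100a1 was kept whichever 1 array was left out, whereas S100a13 lost it without 8 of the 12 arrays (limma, adjusted p up to 0.0740). Under quantile normalization, and with the 75th percentile over probes well above background on all arrays, S100a1 was called and S100a13 was not. S100a1 and S100a13 differed by -0.16 and 0.37 in the unscaled table of the authors. Chondrocytes also use S100a1. The summed signal of 5 of the 6 chondrocyte markers lay between 0.244 and 0.628 on the Dunn arrays and between 0.105 and 0.188 on the LM8 arrays. Col2a1, not measured on every array and left out of the sum, averaged 6.81 and 6.59 in early and late Dunn (n = 2 each). It averaged 5.92 and 5.72 in early and late LM8. The part of these markers in the S100a1 and S100a13 results was not tested.

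**Figure D4:**
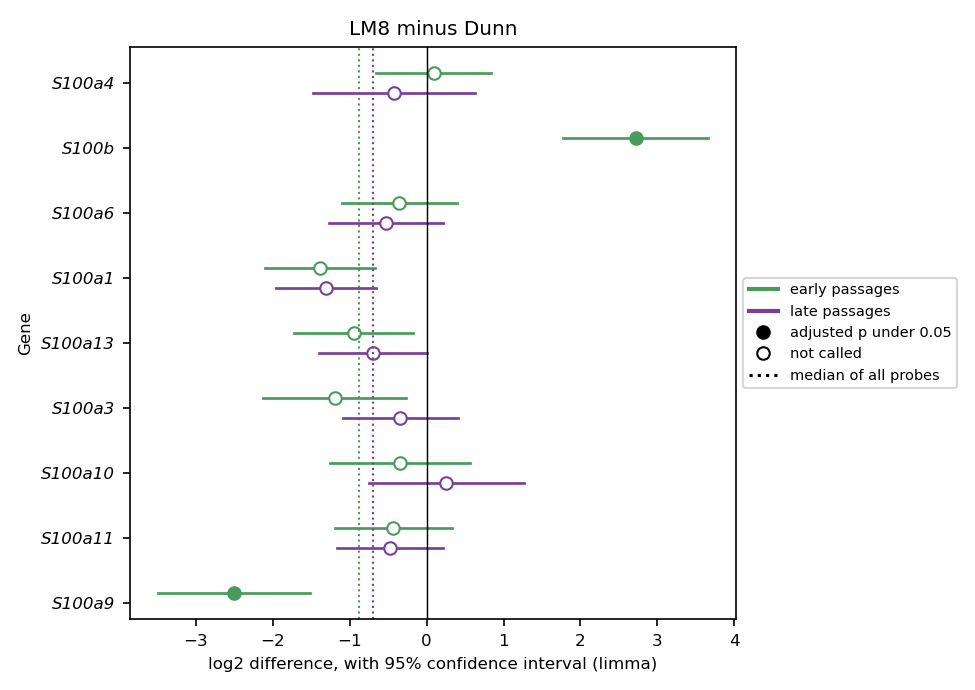
LM8 minus Dunn log2 difference of each S100 gene at early (green) and late passage (purple), with 95% confidence intervals from limma, filled points at an adjusted p under 0.05 and dotted lines at the median of all probes. S100a8, and at late passage S100a9 and S100b, were not well above background in either line and are not drawn. S100b is the only gene with an interval wholly above 0, at early passage, and it and S100a9 are measured against a group that was not well above background.

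On chromosome 3 of the RefSeq annotation lie 9 of the members. The run from S100a1 through S100a13, S100a14, S100a16, S100a3, S100a2, S100a4, S100a5, S100a6, S100a7a and S100a8 to S100a9 has no other protein-coding gene between its members. S100a7l2 follows after 1 other protein-coding gene, and S100a11 and S100a10 stand together after 54 more. Along the run the passage differences were uneven. S100a16, which lies between S100a13 and S100a3 and was well above background on all arrays, differed by -0.69 (SE 0.30) in Dunn and by -0.10 (SE 0.20) in LM8, with adjusted p of 0.766 and 0.784 by limma. S100a2, which was chosen after its values were seen because it lies next to S100a4, was well above background on 6 arrays and differed by -0.61 (SE 0.43) and -0.33 (SE 0.30), with adjusted p of 0.766 and 0.532 by limma. None of 7 further listed genes (6 other S100 genes and S100pbp, which encodes a protein that binds S100P) and none of 9 genes that flank the cluster was called in either passage comparison by limma, where 0.00501% (Dunn), and 1.81% lower and 0.978% higher (LM8), of all genes were called, so that no call among so few is near the background.

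**Figure D5:**
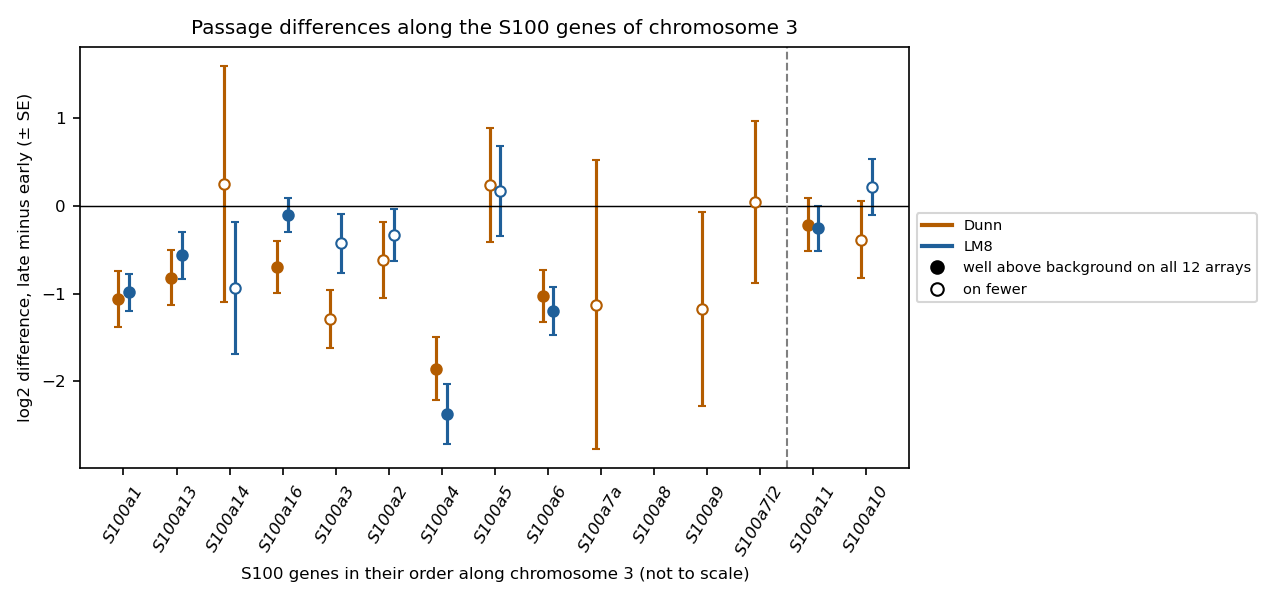
Late minus early log2 difference (± SE) of the S100 genes in their order along chromosome 3, in Dunn (brown) and LM8 (blue), with filled points for genes well above background on all 12 arrays; the dashed line marks the 54 genes before S100a11, and points below background in both passages are left out. Of the points drawn, S100a4 has the lowest value in each line, and its neighbours S100a2 and S100a5 lie closer to 0.

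Of the 10 members, 9 had promoter windows, 12 in all, and 4 of the windows held TATAAA. These were the windows of S100a4, S100a8 (at position -30), S100a9 (at the annotated start) and 1 of the 4 windows of S100a3. CpG dinucleotides numbered between 0 and 15, with the highest count in S100a11.

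The known partners of the S100 proteins were counted in lists. In late against early Dunn none of 11 annexin and plasminogen genes, 7 receptors, 17 intracellular targets and 3 genes released with S100a13 was called, where 1 gene was called among all tested. In late against early LM8 none of the 11 annexin and plasminogen genes was called, and their median difference was -0.34, where 1.81% of all genes were called lower and 0.978% higher. Of the 7 receptors, the scavenger receptor Cd36, which binds S100a8 with S100a9, rose by 1.80 on the log2 scale (SE 0.32, limma, adjusted p = 0.0421), with 2 of 3 early and all 3 late arrays well above background, and none of the receptors fell. Of the 17 targets, Padi3, the enzyme that citrullinates S100a3, was at least 5.41-fold higher (limma, adjusted p = 0.0103). Of the 3 genes released with S100a13, Fgf1 was at least 2.35-fold higher (limma, adjusted p = 0.0243). Each of Padi3 and Fgf1 was well above background on all 3 late LM8 arrays and on none of the early ones. Myh9, the myosin bound by S100a4, differed by -0.36 (SE 0.18) in LM8 (limma, adjusted p = 0.301), and the receptor Ager was well above background on 1 early LM8 array and on no late one.

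Between the lines at early passage, none of the 11 annexin and plasminogen genes was called. Of the 7 receptors, 17 targets and 3 genes released with S100a13, 1 each was called lower in LM8. At late passage 1, 1, 2 and 1 genes of these 4 lists were called lower and 1 receptor higher. Of all genes, 3.33% were called lower and 1.32% higher at early and 3.85% called at late passage. The median of all probes was -0.88 and -0.69. Cd36 was lower in LM8 by 3.89 on the log2 scale at early and by 2.82 at late passage (limma, adjusted p = 0.00786 and 0.0101). Ryr1, the calcium channel on which S100a1 acts, was lower by 2.49 and 2.27 (limma, adjusted p = 0.0148 and 0.0127). Tlr4, a receptor of S100a8 with S100a9, was higher in late LM8 than in late Dunn by 1.48 (limma, adjusted p = 0.0415). Fgf1, which rose with passage in LM8, was lower in LM8 than in Dunn at both passages, by at least 5.04-fold at early passage (limma, adjusted p = 0.0166) and by 2.24 on the log2 scale at late passage (limma, adjusted p = 0.0398). At late passage Plg, the plasmin precursor, was at least 6.68-fold lower and Myh10, a non-muscle myosin, at least 2.93-fold lower in LM8 (limma, adjusted p = 0.0484 and 0.00641).

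By a rule on likeness, the genes whose signals followed S100a4 most closely over the 12 arrays were Isg15 (r = 0.970), Apol9a (r = 0.961) and Oas1f (r = 0.952). Isg15 and Oas1f are known as interferon-stimulated genes. Isg15 averaged 2.96 ± 0.11 in early Dunn, 1.72 ± 0.15 in late Dunn, 3.15 ± 0.37 in early LM8 and 1.02 ± 0.57 in late LM8, the same order of groups as for S100a4. In late against early LM8, Isg15 fell by 2.13 on the log2 scale, Apol9a by 3.44 and Oas1f by 3.22 (limma, adjusted p = 0.0312, 0.00799 and 0.00265). In Dunn the differences were -1.24, -2.40 and -1.75 and were not called (limma, adjusted p = 0.530, 0.227 and 0.459). The genes closest to S100b were Mib2 (r = 0.952), Abca8b (r = 0.930) and Tyrp1 (r = 0.927). Like S100b, Abca8b and Tyrp1, an enzyme of melanin synthesis, were well above background on the 3 early LM8 arrays alone. Tyrp1 was at least 10.4-fold lower and Abca8b at least 2.98-fold lower in late LM8 (limma, adjusted p = 0.00293 and 0.0210), whereas Mib2, well above background on all arrays, differed by -0.65 (limma, adjusted p = 0.218). These genes were picked by their likeness over the same 12 arrays in 4 groups, so their passage differences are a description and no independent evidence.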

How the data were processed

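Gene expression was measured in 12 samples on Agilent mouse 4x44K v2 arrays. The authors deposited 1 Agilent Feature Extraction 10.7.3 output per array, in which the intensity of a spot is already background-subtracted, and 1 table that holds the same deposited intensity rounded (ratio 0.995 to 1.005) and unscaled. The other deposited columns used (quality flags and accessions) carry no measured unit. RNA extraction is given as RNeasy in the labels and as TriReagent in the study's methods.

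Control features and those marked as outliers were removed, 43020 spots were averaged into 39429 probes, and log2 signals were centred on each array's 75th percentile. Accessions matched 26581 probes (67.4%) to 20144 RefSeq genes (GRCm38.p6). Promoter coordinates are those of RefSeq. A gene is represented by its probe of highest mean signal, measured on at least 2 arrays of each group compared. A spot counts as well above background by the scanner's flag. Where a group passed on no array and most arrays of the other passed, the fold is a bound against the lowest signal of a probe that passed.

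Groups were compared with limma 3.58.1 (lmFit, eBayes; R 4.3.3) on the groups compared, with Benjamini-Hochberg adjustment over all probes, called at 0.05. The fit was tested on simulated data. Replicate numbers of the titles were taken as slides, but only 12 of 18 pairs of same-numbered arrays deviated together (r over 0.1, range -0.231 to 0.683), so no block was used. Normexp used the median signal, since no mean signal column was given. The number of arrays limits the precision. The 10 genes, the lists and the rule for named genes (all members, listed partners where called or described, and the 3 closest genes to the widest-ranging member in each detection class) were chosen with earlier results of these data known. Alternatives were quantile normalization, normexp, the deposited table, a floor, a filter and array weights, among others given in the closing section. Plots used matplotlib 3.10.9. A listed glial marker, and the sum that holds it, is not reported here.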

Additional observations from a re-analysis of the deposited data

How the results depend on the processing

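Each result of the listed S100 genes was recomputed under quantile normalization, normexp, the authors' table, a minimum for dim values (floor), removal of dim probes (filter), the mean of a gene's probes, 1 fit over all 12 arrays, a replicate block, array weights, a plain t-test outside limma and every array left out in turn. Calls of other genes, such as partners, receptors, markers and those picked by likeness, were not recomputed. A 75th percentile over probes well above background on all arrays was added after seeing the data. The numbers of S100 genes called were as follows. In late against early Dunn, 0 became 1 with the filter and 1 with a single fit. In LM8, 2 became 4 with the floor, the filter or array weights and 0 by the plain t-test. In this comparison and in early LM8 against Dunn, S100b passed the filter through early LM8 alone, where it is high. Its calls with the filter are therefore no support. With passages pooled, 4 became 1 under quantile normalization, 0 in the authors' table, 2 with the filter and 1 with the added percentile. In early LM8 against Dunn, 2 became 4 under normexp, the floor or the filter, 6 with array weights (1 higher and 1 lower became 0 and 4 under normexp, 1 and 3 with the filter and 1 and 5 with weights), 1 by the plain t-test, the authors' table or the added percentile, and 0 with the replicate block (S100a9 and S100b, adjusted p = 0.0691 and 0.0579 by limma). In late LM8 against Dunn, 0 became 1 under quantile normalization, normexp, the filter, a single fit or array weights. The interaction count of 0 became 1 with the filter or array weights (S100b, which passed the filter through early LM8 alone, where it is high). The count of 4 over 2-fold in Dunn became 1 under normexp or the added percentile and 0 in the authors' table. Leaving out 1 array gave 0 to 2 in LM8 (0 without early replicate 1 or late replicate 2), 1 to 5 pooled (1 without late LM8 replicate 2 or 3), 0 to 5 at early (0 without any early LM8 array, 5 without early Dunn replicate 2) and 0 to 1 at late passage (1 without late Dunn replicate 1) between lines, and 2 to 5 over 2-fold in Dunn. The replicate block kept S100a4 and S100b called in LM8 (adjusted p = 0.0445 and 0.0276 by limma).

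Signs turned mainly in the authors' unscaled table. There late minus early Dunn was 0.35 for S100a10, 0.76 for S100a11 and 0.17 for S100a13, and late minus early LM8 was 0.13 for S100a11. LM8 minus Dunn pooled was 0.42 for S100a3, 1.02 for S100a4, 0.75 for S100a6, 0.99 for S100a10, 0.74 for S100a11 and 0.37 for S100a13. At early passage it was 0.10 for S100a1, 0.29 for S100a3, 1.13 for S100a6, 0.90 for S100a10, 1.05 for S100a11 and 0.54 for S100a13, and at late passage 0.55 for S100a3, 0.47 for S100a4, 0.37 for S100a6, 0.42 for S100a11 and 0.20 for S100a13. That table is not scaled between arrays. The added percentile gave 0.075 for S100a11 in Dunn, 0.20 for S100a4 and 0.28 for S100a10 pooled, and 0.12 for S100a6, 0.013 for S100a10 and 0.036 for S100a11 at early passage. Quantile normalization gave 0.005 for S100a11 in Dunn, 0.10 for S100a10 pooled and 0.49 for S100a3 at late passage. Normexp gave -0.72 for S100b pooled, -0.54 for S100b and 0.057 for S100a6 at early passage. The floor gave -0.10 for S100b pooled, the replicate block 0.092 for S100a10 pooled, the probe mean -0.082 for S100a4 at early passage, and array weights -0.069 for S100a10 in LM8. With 1 array left out, pooled S100a10 ran from -0.17 to 0.10 and pooled S100a4 from -0.44 to 0.18, and early S100a4 from -0.031 to 0.247. The cause was not tested. Scaling moved the median of all probes in LM8 against Dunn from -0.80 to -0.14 (quantile) and 0.39 (authors' table). Signals of S100a3, S100a8, S100a9 and S100b near background limit what could be measured.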
